A study of Oscheius tipulae with 48 samples.

Results

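The 150 genes described here are those of the free-living nematode Oscheius tipulae whose RNA level stood furthest above every other stage in embryos of 64-200 cells. They were chosen from 14558 genes by their RPKM, a read number divided by gene length and library size, averaged as log2(RPKM + 1) over 9 groups of libraries: embryos of 2-8 cells, of 8-64 cells and of 64-200 cells, L1, L2 to L4, young and mature adults, males, dauer larvae, and post-dauer mature adults. A gene qualified when its mean was highest at 64-200 cells and when all 4 libraries of that window held at least 10 RPKM. Of the 1415 genes that qualified, the 150 with the largest margin over the next highest group were kept. The libraries that chose the genes therefore describe them and test nothing about their peak. The unit is named neither in the table nor in the labels and was inferred from the values, so comparisons of level between genes rest on the per-length scale being right. The table pairs no gene ID with a name, so the genes are given by ID, and no function is assigned to them.

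A nematode embryo begins with RNA that the mother laid down in the oocyte. Transcription from the embryo's own genome takes over during cleavage, the founder lineages become distinct, and gastrulation carries the precursors of gut, muscle and germ line inside while cells go on dividing. Oscheius tipulae also removes the ends of its chromosomes in early cleavage, before the window described here. Genes that peak later in embryogenesis are in general those read from the embryo's own genome while cells divide and acquire their fates.

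All 48 libraries came from strain CEW1, and total RNA was depleted of ribosomal RNA. Embryos of 2, 100-150 and 150-200 cells and mixed embryos had 1 library each, 64-128 cells had 2, the other embryo stages and L1 had 3, and all later groups had 2. Embryos were freed from egg-laying worms by bleaching and grown in a salt medium, L1 larvae arrested without food were then fed bacteria, post-dauer worms started from dauer larvae of a liquid culture, and males, which carried him-1(sy527), were picked by hand, 200 per library. The genes were not chosen on 10 libraries: L1 replicate 1, the 6 libraries of post-dauer L3, L4 and young adults, mixed embryos and both mixed-worm libraries. Each replicate number was read from a library's description, and L2, L3 and L4 columns carry a digit that serves as a name alone. Whole embryos and worms were sampled, so fewer cells of a type and less RNA per cell cannot be told apart.

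Several libraries stood apart. Genes that are silent in most libraries (3124 genes, median under 0.5 RPKM over all libraries) were raised in 5 libraries. Their median there was 5.32 RPKM in replicate 1 of the post-dauer young adults, 3.59 and 1.55 RPKM in dauer larvae, 2.44 RPKM in replicate 1 of post-dauer L3 and 1.365 RPKM in replicate 1 of post-dauer L4. Elsewhere it was between 0 and 0.54 RPKM. The column sums ranged from 371389 to 860569 RPKM, the highest in 16-32 cell replicate 3. Where fits were repeated without libraries that stood apart, the 7 left out were 16-32 cell replicate 3 and replicate 1 of L1, young adults, dauer larvae, and post-dauer L3, L4 and young adults. These 7 were picked after seeing the data and do not follow from the values above alone. Silent genes had a median of 0.15 RPKM in L1 replicate 1 and 0 RPKM in young adult replicate 1. Dauer replicate 2, at 1.55 RPKM, was kept. Of the 4 libraries at 64-200 cells, 3 carry replicate number 3.

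The chosen genes had a mean level over the 64-200 cell libraries of 13.99 to 9594 RPKM, with a median of 86.1 RPKM. Their margin over the next highest group was 1.04 to 3.26 on the log2(RPKM + 1) scale, with a median of 1.40. The choice fixed these values. In 117 genes the next highest group was embryos of 8-64 cells, and in 33 it was a larval, dauer or adult group: L2 to L4 in 16, L1 in 8, dauer in 3, and adults, males and post-dauer mature adults in 2 each. The last genes inside the list were Oti_g03738 and Oti_g12452 with margins of 1.05 and 1.04, and the first outside were Oti_g13502 and Oti_g00588, both with 1.04. The edge of the list is thus a point on a continuous scale.

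In staged embryos the 150 genes were higher at later stages, by steps that differed between replicate numbers. In the libraries numbered 1 the median over the genes was 2.4 RPKM at 2-4 cells, 5.46 at 4-8, 9.79 at 8-16, 21.1 at 16-32, 14.1 at 32-64 and 52.9 RPKM at 64-128 cells. In those numbered 2 it was 4.07, 9.58, 26.8, 29.6 and 46.8 RPKM from 2-4 to 32-64 cells. In those numbered 3 it was 8.21 RPKM at 2 cells, then 14.3, 20.1, 27.2, 29.045 and 86.3 RPKM from 2-4 to 32-64 cells, and 91.0, 110.2 and 89.9 RPKM at 64-128, 100-150 and 150-200 cells. The libraries numbered 3 had thus reached their later level by 32-64 cells, whereas the library numbered 1 at that stage had not.

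**Figure D1:**
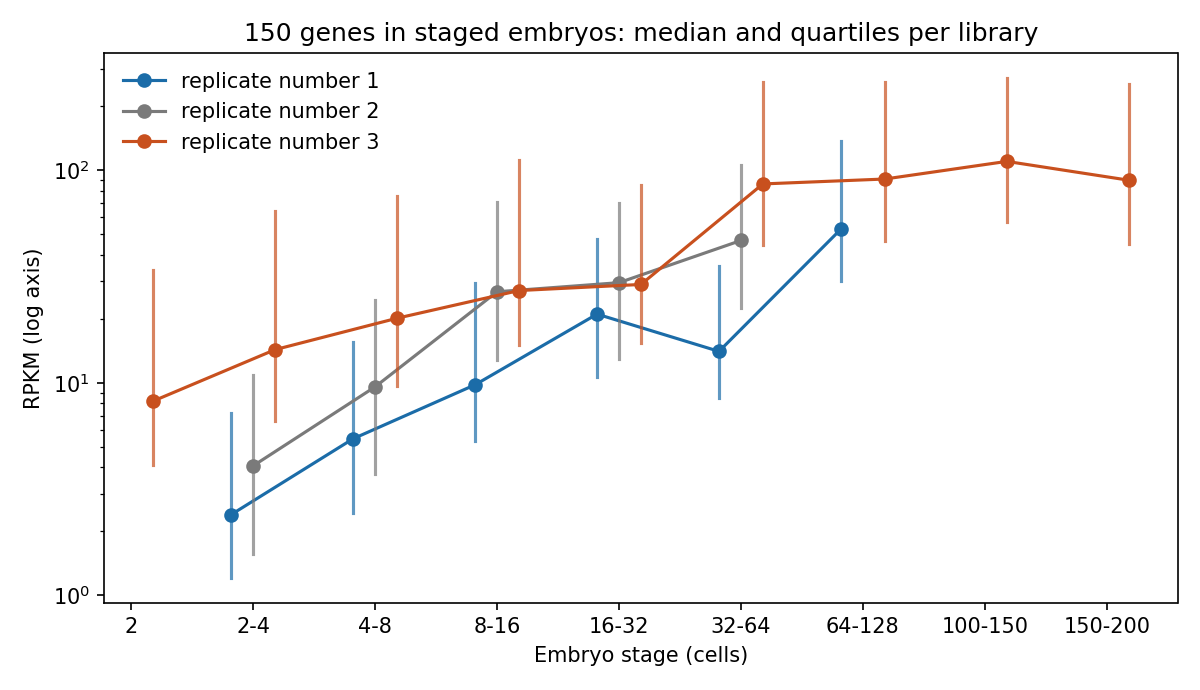
RPKM of the 150 genes (vertical, log axis) by embryo stage in cells (horizontal), as the median (point) and quartiles (bar) over genes in each library, with libraries of 1 replicate number joined and coloured alike. The curve of number 3 climbs to 86.3 RPKM at 32-64 cells and stays near it, while that of number 1 is at 14.1 RPKM there and at 52.9 RPKM at 64-128 cells.

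How many genes were already on can be counted against the 10 RPKM that the choice demanded later. At 2-4 cells 32, 40 and 94 of the 150 genes reached it in replicates 1, 2 and 3. At 8-16 cells 75, 121 and 130 did, and at 32-64 cells 97, 143 and 150. In 2-4 cell replicates 1 and 2, 29 and 25 genes were under 1 RPKM, and in replicate 3 none was.

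The earlier step, from the mean of 2-8 cells to the mean of 8-64 cells, was large under all 3 numbers. Its median was 1.72, 2.37 and 1.63 on the log2(RPKM + 1) scale in numbers 1, 2 and 3. In number 1, 128 genes were higher by 1 or more (20.3% of genes with 1 RPKM in any library compared) and 150 were above 0 (57.8%). In number 2 these counts were 145 (30.0%) and 150 (67.1%), and in number 3 they were 124 (17.9%) and 149 (55.1%). Nearly all of the 150 genes were thus higher at 8-64 than at 2-8 cells in each series, before the window of their highest mean. These libraries entered the choice, which demanded 10 RPKM in the window and lower means at 2-8 and 8-64 cells. The genes behind the percentages were under no such demand, so the shares are not a like comparison and the counts are a description.

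Within a replicate number, the step from 32-64 cells to the 64-200 cell window was large in 1 series and nearly absent in the other. In number 1, where the window holds the 64-128 cell library alone, 127 of the 150 genes were higher by 1 or more on the log2(RPKM + 1) scale, a step that 14.4% of 8101 genes with 1 RPKM in either library made. In number 3, with 3 libraries in the window, 0 of the 150 genes made such a step, against 0.926% of 9400 genes. The median difference was 1.83 in number 1, where all 150 genes were above 0 (42.8% of all genes), and 0.13 in number 3, where the lower quartile was 0.03 (47.0% of all genes were above 0). From 32-64 to 64-128 cells alone, number 3 had a median of 0.03, with 87 genes above 0 (48.8%) and 0 at 1 or more (1.25%). Set against the mean of 8-64 cells, the window was higher by 1 or more in 127 genes in number 1 (13.6%) and in 91 in number 3 (8.89%), and higher at all in 149 in each (41.1% and 61.8%). These same libraries chose the genes, so the values describe where the margin came from. The summed RPKM of 64-128 cell replicate 1 was 375521 and that of 32-64 cell replicate 1 was 561751, and with columns scaled to 1 sum the median difference in number 1 was 2.41.

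**Figure D2:**
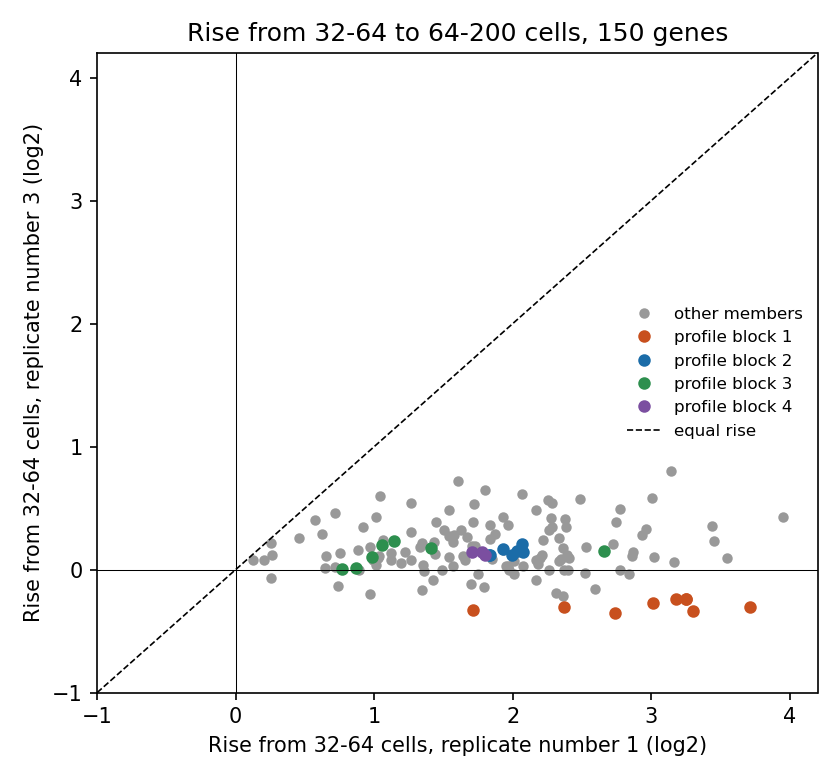
Difference in log2(RPKM + 1) from 32-64 cells to the mean of the 64-200 cell libraries, in replicate number 1 (horizontal) and number 3 (vertical), 1 point per gene, coloured by the groups of nearly equal profile described in the text. Every point lies between 0.13 and 3.95 on the horizontal axis and between -0.35 and 0.80 on the vertical one.

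The excess of number 3 over number 1 was present before the window. All 150 genes were higher in replicate 3 than in replicate 1 at 2-4, 4-8, 8-16 and 32-64 cells, with medians of 1.93, 1.58, 1.31 and 2.39 on the log2(RPKM + 1) scale. Over all genes with 1 RPKM in either library the medians were 0.66, 0.38, 0.32 and 0.56. The number of genes at 1 or more was 144, 132, 100 and 150, against 32.7%, 17.3%, 15.3% and 32.2% of genes with 1 RPKM in either library. At 16-32 cells the median was 0.67 with 103 genes above 0, of which 62 were at 1 or more (20.9% of genes), and at 64-128 cells it was 0.68 with 132 above 0, of which 56 were at 1 or more (28.3% of genes). Over all genes the medians were 0.05 and 0.70, so at 64-128 cells the median of the 150 genes was near that of all genes. The share of the 150 at 1 or more was nevertheless above the 28.3% of all genes. The choice demanded 10 RPKM in both 64-128 cell libraries, which limits how low replicate 1 could be at that stage. The labels do not say what the replicate number marks, and its part in the peak was not tested. With the choice repeated on the embryo libraries numbered 3, the 64-200 cell mean was highest in 149 of the 150 genes, with a median margin of 1.10. Of the 150 genes, 82 were among the 150 largest margins there. Adults, males, dauer larvae and post-dauer mature adults have no library numbered 3. The window libraries numbered 3 had also chosen the genes, so these counts describe them and test nothing about their peak.

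Which single library held the highest value also depended on the number. Among the 6 libraries numbered 1, the highest value was at 64-128 cells in 137 genes, at 16-32 cells in 12 and at 8-16 cells in 1. Among the 5 numbered 2, which end at 32-64 cells, it was at 32-64 cells in 140 genes and at 8-16 cells in 10. Among the 9 numbered 3 it was at 100-150 cells in 92 genes, at 16-32 cells in 33, at 32-64 cells in 17, at 64-128 cells in 7 and at 150-200 cells in 1. In the 33 and the 17 genes, the highest library of that series lay before the window. The 16-32 cell library of that number has the largest column sum of all.

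The largest margins were those of Oti_g02274, Oti_g07456 and Oti_g14555, followed by Oti_g02275, Oti_g02273 and Oti_g09454. Oti_g02274 was at 1.15, 3.67, 6.69, 11.6, 10.1 and 145 RPKM in the number 1 libraries from 2-4 to 64-128 cells. In the number 3 libraries from 2-4 cells it was at 231, 270.1, 411, 83.5, 1383, 1321, 946 and 1128 RPKM. Its highest library was thus 32-64 cell replicate 3, and the 2-4 cell library numbered 3 lay above the 64-128 cell library numbered 1. Oti_g07456 behaved differently, at 0.80, 1.02, 1.29, 1.93, 1.13 and 17.8 RPKM in number 1 and at 7.37, 6.83, 6.20, 18.6, 33.1, 38.9, 87.5 and 58.6 RPKM in number 3. This gene was higher in the 64-200 cell libraries than in all earlier libraries of its own number, and its difference from 32-64 cells was 3.14 in number 1 and 0.80 in number 3 on the log2(RPKM + 1) scale. Oti_g09454 differed by 2.94 and 0.28 on that scale and was at 1051 RPKM at 100-150 cells.

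The difference between 32-64 and 8-16 cells, which the choice averaged over, was put to a test across all genes. None of the 150 genes passed limma's Benjamini-Hochberg adjusted p of 0.05 with a log2 change of at least 1, and neither did any other of 9332 genes (0.00% higher and 0.00% lower). At an unadjusted p under 0.05 there were 14 of the 150 genes and 778 of all genes. The median log2 change of the 150 genes was 0.96, and that of all genes was -0.000365. The replicate number pairs these embryo libraries, and with it as a block limma again called 0, with 71 of the 150 genes and 2216 of all genes at an unadjusted p under 0.05. Such counts of 0 do not show that the stages are alike. In the 3 same-numbered pairs the median change was 0.53, 0.76 and 1.62, with 134, 140 and 150 genes above 0 (44.3%, 37.2% and 59.5% of all genes) and 127 above 0 in all 3. The genes higher by 1 or more were 5, 32 and 140 in pairs 1, 2 and 3, against 1.08%, 4.86% and 23.5% of all genes with 1 RPKM in either library. In 10 genes all 32-64 cell libraries lay above all 8-16 cell libraries, as in 7.97% of 9342 genes. The median change of 0.96 became 0.33 when 32-64 cell replicate 3 was left out, 0.49 when 8-16 cell replicate 1 was, and 1.62 when 32-64 cell replicate 1 was.

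Inside the window, steps between the libraries numbered 3 were small in size, up and then down in the median. From 64-128 to 100-150 cells the median difference was 0.32, and from 100-150 to 150-200 cells it was -0.25. Over genes with 10 RPKM in all 4 libraries (4503 genes) these medians were -0.05 and 0.02. There were 4 genes higher by 1 or more in the first step, as were 0.244% of those 4503 genes, and 0 in the second (0.0888%). From 64-128 straight to 150-200 cells the median was 0.03, with 0 genes at 1 or more (0.00%). Each of these stages is a single library, so neither step has a replicate check.

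Set against the mean of both 64-128 cell libraries, 29 genes were higher by 1 or more at 150-200 cells (2.29%). The largest differences were those of Oti_g04320 and Oti_g04301, at 1.85 and 1.56 on the log2(RPKM + 1) scale. Oti_g04320 was at 15.8 and 153 RPKM at 64-128 cells, 248 RPKM at 100-150 and 183 RPKM at 150-200 cells, and Oti_g04301 at 17.4, 91.8, 124 and 121 RPKM. In both, the 64-128 cell library numbered 1 was the low value, and within number 3 the differences were 0.26 and 0.39. The 2 lowest differences were those of Oti_g12438 and Oti_g02661, at -0.37 and -0.30. Oti_g12438 was at 84.8 and 84.9 RPKM at 64-128 cells, 90.7 RPKM at 100-150 and 65.6 RPKM at 150-200 cells. Here the 64-128 cell libraries of both numbers were alike. Over all 150 genes, 64-128 cell replicate 3 exceeded replicate 1 by a median of 0.68, with 56 genes at 1 or more (22.5% of the 4503), and the median over the 4503 genes was 0.66.

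The highest levels belonged to genes whose profiles were nearly equal. Members were joined where the correlation of log2(RPKM + 1) over the 48 libraries was at least 0.98, which placed 28 of the 150 genes in 5 profile blocks. A gene joined a block through any 1 of its members, so pairs within a block could correlate less. The lowest such correlation was 0.976 in block 1 and 0.932 in block 3. Block 1 held 9 genes, blocks 2 and 3 held 7 each, block 4 held 3 and block 5 held 2. The correlation is across libraries that share stage and depth and is given as a description. The median correlation over all pairs of the 150 genes was 0.722.

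Blocks 2, 3 and 4, 17 genes in all, made up 70.7% to 76.6% of the summed RPKM of the 150 genes in the 64-200 cell libraries. Oti_g00692 and Oti_g00782, both of block 2, were the highest of the 150 genes in the 64-200 cell window, at 32-64 cells, in L1 replicate 1 and over the post-dauer libraries that the choice did not use. Oti_g00692 was at 4133 and 9018 RPKM at 64-128 cells, 12863 RPKM at 100-150 and 12364 RPKM at 150-200 cells. At 32-64 cells it was at 1159, 3051 and 10393 RPKM, and at 16-32 cells at 2776, 1037 and 19280 RPKM. Its highest staged library was therefore 16-32 cell replicate 3, outside the window. Lower in the window, and picked after their values were seen, Oti_g00690 of block 4 was at 1887, 5102, 6495 and 5743 RPKM in its 4 libraries and Oti_g12139 of block 3 at 1348, 3003, 3545 and 3175 RPKM.

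The 150 genes together took a large part of the values in late embryos. Their share of the summed RPKM was 0.291%, 0.583% and 1.62% in the 2-4 cell libraries, 2.01%, 7.32% and 15.9% at 32-64 cells, and 9.96%, 15.3%, 19.7% and 18.2% in the window. It was 16.7% in 16-32 cell replicate 3, against 3.92% and 3.41% in the other libraries of that stage. Mixed embryos, outside the window, had the highest share of all 48 libraries, 28.8%, and L1 replicate 1 had 4.66%. RPKM is divided by gene length, so a share of summed RPKM is not a share of reads. The median over all genes was 1.86 RPKM in 16-32 cell replicate 3, against 1.3 and 1.01 RPKM in replicates 1 and 2 of that stage. Whether a share this large lowered the RPKM of the other genes in the same library was not tested.

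Block 1 had a different life history, close to silent after embryogenesis. It held Oti_g02272 to Oti_g02275, Oti_g02279, Oti_g06840, Oti_g06847, Oti_g12060 and Oti_g14555, and so 4 of the 6 largest margins. Its median was 94.5, 394, 293 and 378 RPKM in the 4 window libraries, and 9.69, 81.5 and 450.3 RPKM at 32-64 cells. In all 25 larval, dauer and adult libraries the block's median was between 0.10 and 1.08 RPKM, other than 8.16 RPKM in L1 replicate 1 and 13.9 RPKM in young adult replicate 1. From 32-64 cells to the window the block's median difference was 3.18 in number 1 and -0.30 in number 3, while in blocks 2, 3 and 4 it was 1.99, 1.06 and 1.78 in number 1 and 0.14, 0.15 and 0.14 in number 3. Averaged over 2-4 to 32-64 cells, its excess of number 3 over number 1 had a median of 3.74 on the log2 scale, against 2.50, 1.94 and 2.74 in blocks 2, 3 and 4.

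**Figure D3:**
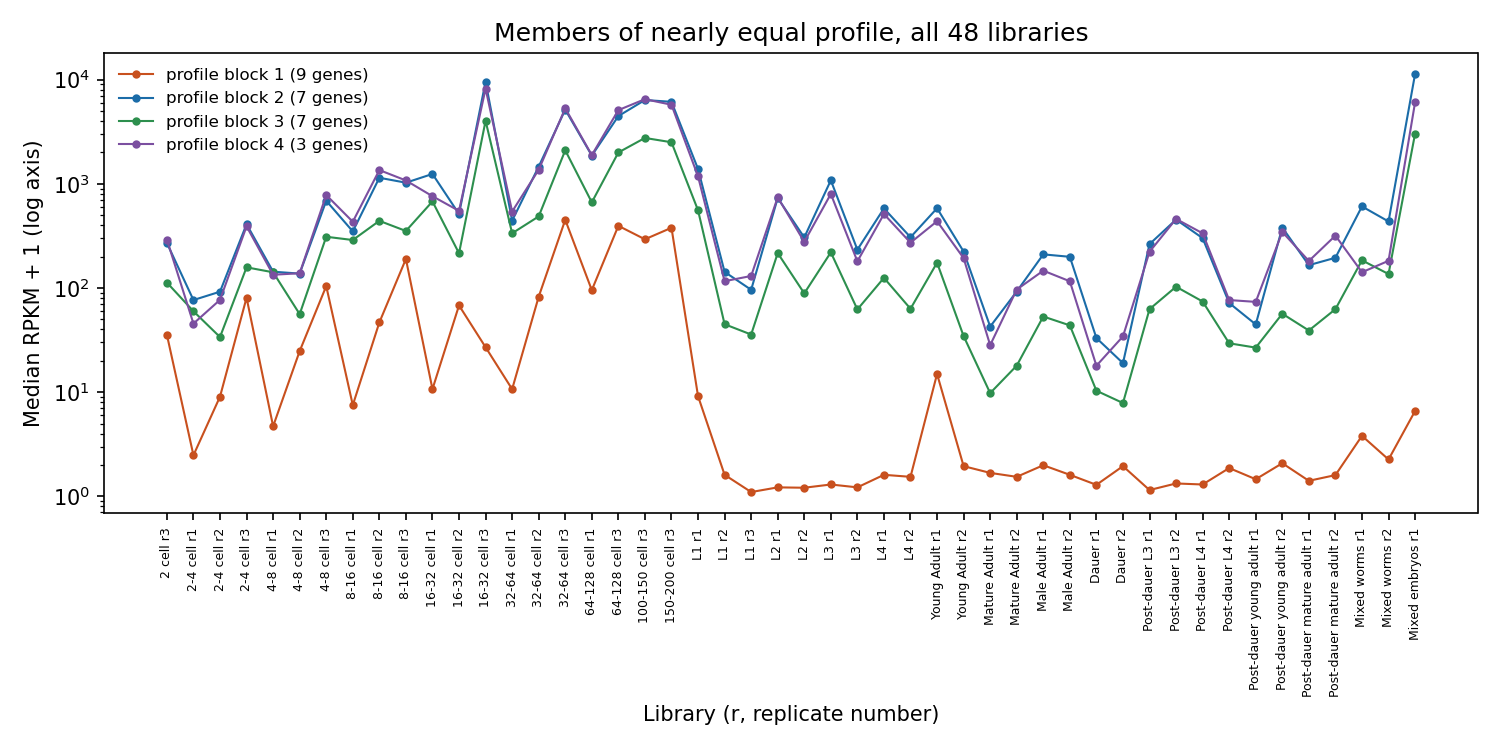
Median RPKM + 1 (vertical, log axis) of profile blocks 1 to 4 in each of the 48 libraries (horizontal, r is the replicate number, or the column digit for L2, L3 and L4). Block 1 reaches 450.3 RPKM at 32-64 cells in replicate 3 and is at 26.0 RPKM in 16-32 cell replicate 3 and 5.6 RPKM in mixed embryos, where block 2 is at 9562 and 11357 RPKM.

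Some members of a block cannot be treated as separate measurements. Oti_g14555 and Oti_g02275 differed by a ratio of 1.01 to 1.03 in the 15 libraries where both had at least 10 RPKM, with a correlation of 0.999974. Oti_g00692 was 1.98 to 2.08 times Oti_g00694 in all 48 libraries. How reads that match several gene copies were counted is not given in the sources used here, so reads shared between near-identical genes cannot be told apart, and the levels of single block members are uncertain.

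Some of the 150 genes had neighbouring ID numbers. For 28 of the 150 genes a gene with the neighbouring ID number was in the list too, and 7 runs held 3 or more numbers in a row, the longest being Oti_g02272 to Oti_g02275. Among the sets of 150 genes chosen in the same way for the 8 other groups, 4 to 22 genes had such a neighbour and 0 or 1 runs reached 3 numbers, although the longest run of the dauer set held 16. Within 5 numbers of another gene of the list lay 37 of the 150 genes, against 17 to 45 in the other sets, the highest being the L1 set. Blocks 2 and 4 together fell into the numbers Oti_g00690 to Oti_g00694, Oti_g00781 to Oti_g00783 and Oti_g00848 to Oti_g00850. These are ID numbers, and positions in the genome were not used here. The difference between sets was not tested.

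Mixed embryos and mixed worms were not used by the choice, and most of the 150 genes were higher in the mixed embryos. Of the 150 genes 136 were higher in mixed embryos than in the mean of the mixed worms by 1 or more on the log2(RPKM + 1) scale, and 0 were lower by 1 or more. Among 11549 genes with 1 RPKM in any of these libraries, 18.1% were higher and 31.4% were lower by that size. The choice demanded that the 150 genes be lower in larval, dauer and adult groups than in the window. The 11549 genes were under no such demand, so these shares are not a like comparison. The median difference was 2.22 for the 150 genes and -0.38 for all genes. The median level of the 150 genes was 44.8 RPKM in mixed embryos and 11.6 and 8.30 RPKM in the mixed worms. There is 1 library of mixed embryos, so the difference has no replicate check. The lowest difference, -0.43, was that of Oti_g02661, at 1.37 RPKM in mixed embryos and 2.09 and 2.31 RPKM in mixed worms.

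In 22 of the 150 genes the value in mixed embryos lay above all 4 libraries of the window, in 75 it lay below all 4, and in 19 it was under 10 RPKM. Among the 4503 genes with 10 RPKM in all 4 libraries, 7.46%, 55.6% and 10.2% did so, and the shares of the 150 genes below the window and under 10 RPKM were near these. The blocks fell on different sides. All 7 genes of block 2 and 6 of the 7 of block 3 were above, and all 9 of block 1 were below, at 0.77 to 12.4 RPKM. Oti_g00692 was at 22912 RPKM and Oti_g04320 at 2291 RPKM, above every staged embryo library, while Oti_g02274 was at 12.4 RPKM. In 16-32 cell replicate 3, 33 of the 150 genes were above the window (27.5% of the 4503 genes), among them all genes of blocks 2, 3 and 4 and 0 of block 1. The stage composition of the mixed embryos is not given in the sources used here.

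**Figure D4:**
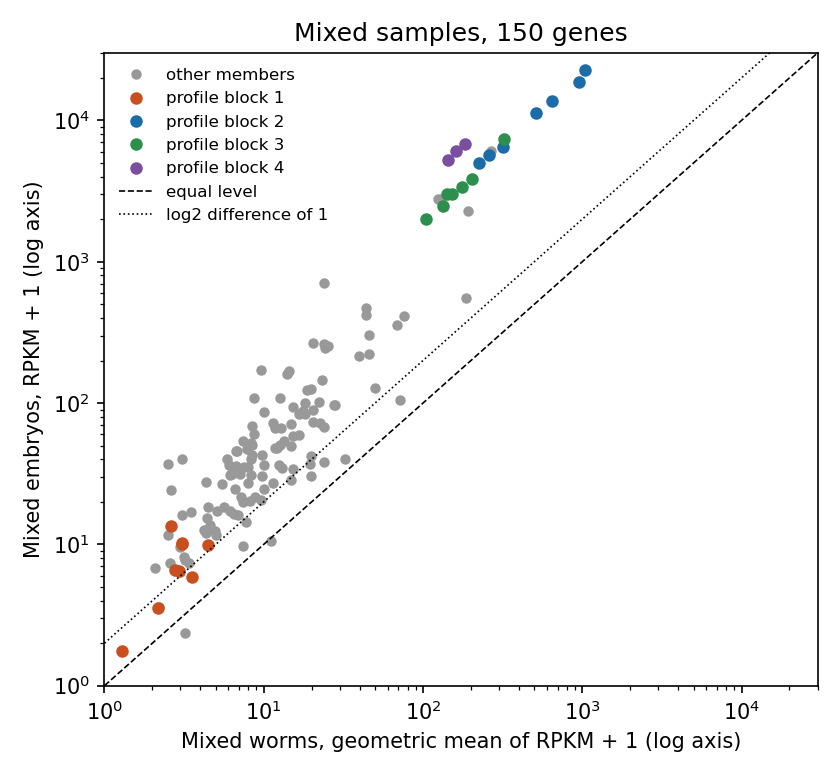
RPKM + 1 in the mixed-embryo library (vertical) against the geometric mean of RPKM + 1 in both mixed-worm libraries (horizontal), log axes, 1 point per gene. Of the 150 points, 136 lie on or above the dotted line of a log2 difference of 1, with blocks 2 to 4 at the top right and block 1 at the bottom left.

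Sets of 150 genes chosen in the same way for other groups set these values in context. From 32-64 cells to 64-128 cells in number 1, the genes highest at 8-64 cells changed by a median of -0.95 and those highest at 2-8 cells by -1.54, against 1.83 for the 64-200 cell genes. In 32-64 cell embryos, replicate 3 minus replicate 1 had medians of -0.48 and -0.41 for these 2 sets and 0.36 for the genes highest in L1, against 2.39 here. Of the 150 genes highest at 8-64 cells, 87 were higher by 1 or more in mixed embryos than in mixed worms, and of those highest at 2-8 cells 0 were. These sets were chosen on the same embryo libraries, and the differences between them were not tested.

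After embryogenesis most of the 150 genes stayed measurable at a lower level. The median over the genes was 17.8, 11.98 and 13.9 RPKM in the L1 libraries, 19.2 and 17.4 RPKM in L2, 14.2 and 13.1 RPKM in L3, 12.3 and 12.8 RPKM in L4, 11.6 and 6.86 RPKM in young adults and 2.62 and 5.37 RPKM in mature adults. It was 9.31 and 9.07 RPKM in males, 10.8 and 7.20 RPKM in dauer larvae and 9.26 and 9.37 RPKM in post-dauer mature adults. Mature adults were thus lowest, and none of these libraries reached the window's lowest median of 52.9 RPKM. All of them except L1 replicate 1 entered the choice, which demanded a lower mean in each of these groups than in the window. Levels below the window therefore describe the choice. Of the 150 genes, 101 had 10 RPKM or more in both L2 libraries and 31 in both mature adult libraries, against 41.8% and 30.4% of all genes. In all 25 larval, dauer and adult libraries 15 of the 150 genes had 10 RPKM or more, and 11 never reached it. Among the 4503 genes with 10 RPKM in all 64-200 cell libraries, 36.6% and 1.71% did so. Neither these genes nor all genes were required to be lower after embryogenesis, so the shares are not a like comparison.

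The 15 genes that kept 10 RPKM throughout included all 7 of block 2 bar Oti_g00781, all 3 of block 4, and Oti_g10463, the gene of largest margin among those whose next highest group was L1. Oti_g10463 was at 115, 580, 922 and 673 RPKM in the window and at 137, 73.9 and 148 RPKM in L1. Oti_g03342, with post-dauer mature adults next, was at 241, 1227, 1871 and 1519 RPKM in the window and at 113 and 218 RPKM in those adults. Oti_g08218, with young and mature adults next, was at 131, 179, 253 and 206 RPKM in the window, 42.9 and 67.6 RPKM in young adults and 30.0 and 63.8 RPKM in mature adults. Oti_g08462, with larvae next, was at 49.3, 43.4, 53.5 and 40.9 RPKM in the window and between 11.9 and 19.2 RPKM in the 6 libraries of L2 to L4, without overlap. Oti_g04320, with males next, was at 35.6 and 46.8 RPKM in males and at or under 2.47 RPKM in L2 to L4, but at 15.8 RPKM in 64-128 cell replicate 1, so the window and the males overlapped. Oti_g02434, with dauer next, was at 22.2, 26.6, 34.98 and 26.7 RPKM in the window and 10.5 and 7.93 RPKM in dauer larvae. These leading genes of each class were picked after their values were seen.

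**Figure D5:**
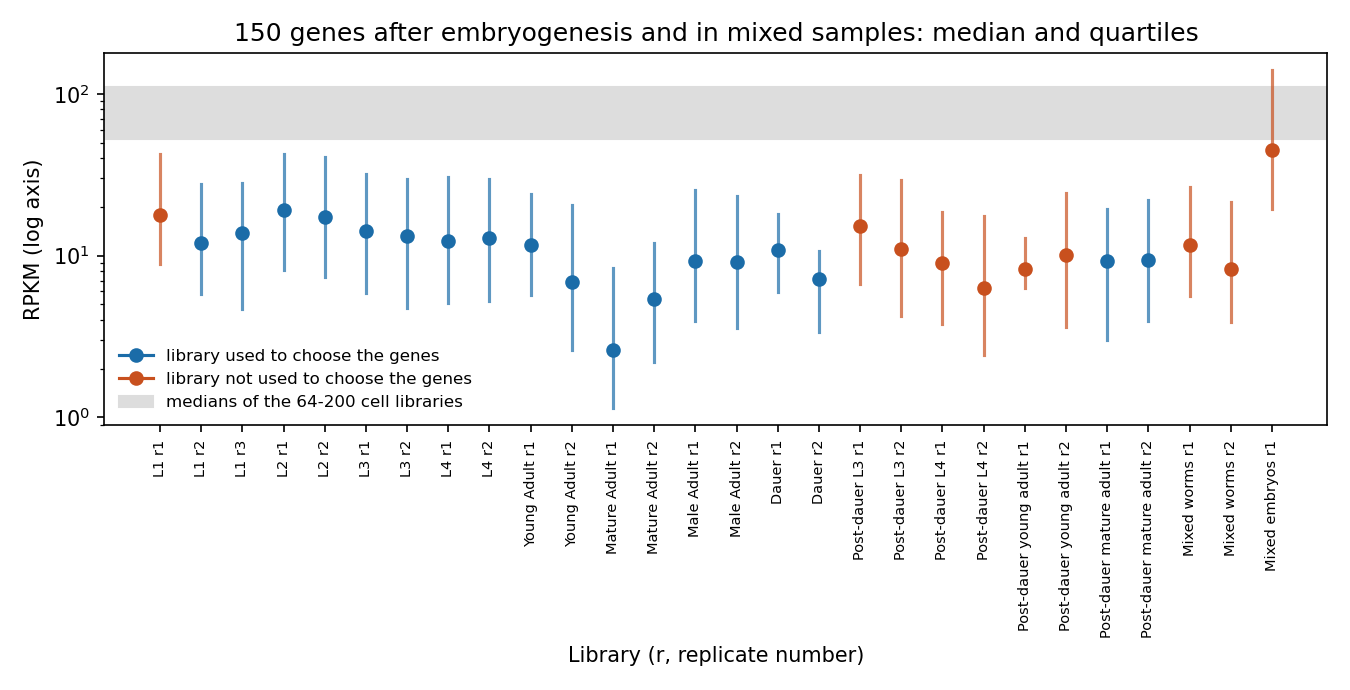
Median (point) and quartiles (bar) of the RPKM of the 150 genes (vertical, log axis) in larval, dauer, adult and mixed libraries (horizontal, r is the replicate number, or the column digit for L2, L3 and L4), with the range of the 64-200 cell medians as a grey band. Apart from mixed embryos at 44.8 RPKM, the medians lie between 2.62 and 19.2 RPKM, all under the band that starts at 52.9 RPKM.

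L1 replicate 1, which the choice left out, differed from the L1 libraries that entered it. In 68 of the 150 genes (45.3%) it was higher than the mean of replicates 2 and 3 by 1 or more on the log2(RPKM + 1) scale, and in 6 it was lower by that size. Over 12094 genes with 1 RPKM in any of these libraries, 18.4% were higher and 32.3% lower by that size. Replicates 2 and 3 entered the choice, which demanded that the 150 genes be lower there than in the window. All genes met no such demand, so the shares are not a like comparison. Oti_g04320 had the largest excess, at 384 RPKM in replicate 1 against 35.3 and 1.31 RPKM. Oti_g00692 and Oti_g00782 were at 2799 and 2120 RPKM in replicate 1, against 287 and 192 RPKM and 242 and 243 RPKM in the others. Block 1 was at 8.16 RPKM in replicate 1 and at 0.61 and 0.10 RPKM in the others. In this library, blocks 1 and 2 were thus both above the other L1 libraries.

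Post-dauer L3, L4 and young adults, also left out of the choice, held the 150 genes at larval and adult levels. In post-dauer L3 the median over the genes was 15.3 and 11.035 RPKM. In L4 after dauer it was 8.99 and 6.34 RPKM, and in young adults after dauer 8.28 and 10.045 RPKM. From post-dauer L3 to L4, limma called 0 of the 150 genes, with 19 of them and 1147 of 14446 genes at an unadjusted p under 0.05. Among all genes 0.00% were called higher and 0.0138% lower. The median log2 change was -0.09 over all genes and -0.66 over the 150 genes. It was -0.35 without post-dauer L4 replicate 2, and 1 of the 150 genes was called lower without post-dauer L3 replicate 2, in each case with 1 library left in a stage, whose spread is taken from the other groups. With a replicate block, 0 of 145 members tested were called (0.0140% of genes higher, 0.0561% lower). Leaving out the libraries that stood apart gave 0 of 146 (0.300% higher, 0.0365% lower), but sets 1 library against 1, each assumed to vary as the replicates of other groups do. Silent genes were raised in replicate 1 of both stages, and their part in this difference was not tested.

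Oti_g00692 stood in post-dauer L3 at 528 and 916 RPKM, in L4 at 605 and 142 RPKM and in young adults at 71.5 and 765 RPKM. The values of all 3 stages overlapped. From post-dauer L4 to young adults limma called 0 of the 150 genes and 0.00% of all genes in either direction, with 2 of the 150 and 594 of all genes at an unadjusted p under 0.05. The median log2 change was 0.12 for the 150 genes and 0.21 for all genes, and the former was -0.03 after quantile normalization. Without post-dauer young adult replicate 2, limma called 1 of the 150 genes higher and 5 lower, and 1130 genes higher and 907 lower over the whole table. That fit holds 1 library of the stage, the one with silent genes at 5.32 RPKM, and takes its spread from the other groups. Without the libraries that stood apart, which again leaves 1 library against 1, 0 of the 150 genes were called, against 0.0292% of genes higher.

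Between L2 and L4 larvae, over which the choice averaged, limma called 0 of the 150 genes, against 0.0415% of 14446 genes higher and 0.0138% lower in L4. At an unadjusted p under 0.05 there were 7 of the 150 and 801 of all genes. The median log2 change was -0.41 for the 150 genes and -0.12 for all genes. With only the 2 stages in the fit, limma called 1 higher and 9 lower of the 136 members tested, and 1017 genes higher and 582 lower of 11504. Without the libraries that stood apart it called 3 lower, against 3.45% of genes higher and 0.570% lower, and after quantile normalization 0, against 0.0485% higher and 0.00692% lower. Nothing in the labels says that replicates came from separate cultures beyond calling them biological, so these p-values measure the spread between libraries. In the main fit that spread was pooled over all later groups, dauer and post-dauer included, and not over L2 and L4 alone. The count of 0 in the main fit therefore depends on libraries outside the stages compared.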

How the data were processed

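The authors deposited 1 table for 14558 gene IDs and 48 libraries, taken here as RPKM. No header or label names that unit: it was inferred from values with decimals whose sums differ between libraries, which fits FPKM as well. HTSeq 2.0.2, StringTie 2.2.0, STAR 2.7.10 and Bowtie2 2.4.2 were used, per the submitters' processing notes, in steps not described there. Build and annotation: not given in the sources used here. Read depth is unknown, so whether depth or the small number of libraries limits precision more cannot be told.

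The 150 genes, the 4 tests and the other lists were chosen with earlier results of these data known. Genes were named as the largest margins, highest levels, largest changes inside the window, highest values outside the choice and edges of the list. No called gene met the rule for naming genes from tests.

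Tests were run in limma 3.58.1 in R 4.3.3 on log2(RPKM + 1), with a mean-variance trend and robust moderation, on genes with 1 RPKM in 2 libraries. The 17 libraries of 6 embryo stages and the 25 libraries of 12 later groups were 1 fit each. Each main test thus took its spread from all groups of its fit, not only from the groups compared. Log2 changes understate those of low genes. A gene was called when its log2 change was at least 1 and its p, adjusted by Benjamini-Hochberg, was under 0.05. Descriptive values used Python 3.11.15. The functions were tested on simulated data. Embryo replicate numbers follow the descriptions, whose numbers are not always those of the titles. At 8-16 and 32-64 cells, libraries of 1 number deviated together from their group means (r across genes 0.792, 0.539 and 0.638), so the numbers pair these libraries. Alternatives were another pseudocount, no filter, quantile normalization, no trend, 2 groups per fit, a replicate block, leaving out libraries and, chosen after seeing the data, scaling columns to 1 sum and leaving out the libraries that stood apart.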

Additional observations from a re-analysis of the deposited data

How the results depend on the processing

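The 4 tests called 0 of the 150 genes with a pseudocount of 0.1, no filter on low values, quantile normalization, no trend and columns scaled to 1 sum. With the replicate number as a block they also called 0 from 8-16 to 32-64 cells, where the numbers pair the libraries, and 0 in both post-dauer comparisons, where only 2 numbers are shared. In L4 against L2 no paired fit was made because those columns carry no label number. In the fit of 2 groups, 10 genes passed between L2 and L4 and 0 in the other comparisons. Without the libraries that stood apart, 3 genes passed between L2 and L4, all lower in L4, among 78 lower genes (0.570%) over the table, and 0 in the other comparisons, of which both post-dauer ones then hold 1 library a stage. Leaving out 1 library gave 0 to 0 genes from 8-16 to 32-64 cells and from L2 to L4, 0 to 1 from post-dauer L3 to L4, and 0 to 6 from post-dauer L4 to young adults. The cause of these differences was not tested.

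Of the 150 genes, 145 were chosen again with a pseudocount of 0.1, 141 with columns scaled to 1 sum and 124 with group medians, and 118 to 144 when 1 library of the window was left out, with 118 without 64-128 cell replicate 1. The median rise from 32-64 cells to the window was 1.90 and 2.41 in number 1, and 0.13 and 0.15 in number 3, with a pseudocount of 0.1 and with columns scaled to 1 sum. The genes higher in mixed embryos by 1 or more numbered 139 and 134 in these settings. Scaling moved the median change of all genes from 8-16 to 32-64 cells to 0.13, and that of the 150 genes to 1.13.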
